A study of Caenorhabditis elegans with 2 samples.

Results

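Sites recovered with the tagged histone chaperone HMG-4 were examined at 9 genes for muscle myosin heavy and light chains, paramyosin and tropomyosin in early embryos of Caenorhabditis elegans. The genes were chosen by name, as the body wall and pharyngeal myosin, paramyosin and tropomyosin genes, and they are 9 of 19973 protein-coding nuclear genes. They are unc-54, myo-1, myo-2 and myo-3 (heavy chains), mlc-1, mlc-2 and mlc-3 (light chains), unc-15 (paramyosin) and lev-11 (tropomyosin). The last of these belongs to the thin filament and not to the thick filament. Each gene was searched for peak summits within 500 bp of its annotated 5' end and within its body. All samples came from strain OP660, which carries the unc-119(tm4063) mutation and the transgene wgIs660, made of hmg-4 joined to TY1, EGFP and 3xFLAG, with a wild-type unc-119 copy. There was 1 group of mixed-sex embryos at 0 hours, obtained by bleaching, with 2 biological replicates and no other strain, stage or treatment. Chromatin was sonicated to between 200 and 800 bp. The labels' description gives an anti-GFP antibody for the precipitation, whereas their antibody field names hmg-4, so whether untagged HMG-4 could be recovered is not settled by the labels. The labels do not give which promoter drives the transgene's expression or whether the strain still makes untagged HMG-4. Whole embryos were used, so cell types were not separated, and peak lists hold no RNA levels against which muscle identity could be checked.

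Muscle thick filaments are built from myosin heavy chains wound around a core of paramyosin, with light chains bound at the neck of each myosin head. In the worm, unc-54 and myo-3 encode the heavy chains of body wall muscle, and myo-1 and myo-2 those of the pharynx, the muscular feeding organ. Tropomyosin lies along actin in the thin filament and controls access of myosin heads. HMG-4 is a worm homolog of SSRP1, a subunit of the chaperone FACT, which loosens and rebuilds nucleosomes and accompanies RNA polymerase II along genes.

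The sequences at 4 of the upstream summits are printed below because these sites carry the results for the light chains and for myo-2, whose peak was listed in a single replicate. Each is 121 bases of the ce11 genome (WBcel235, from RefSeq) centred on the pooled summit and read along the coding strand of its gene. The window of mlc-3 is chrIII:5564888-5565008 on the plus strand, 77 bp upstream of the 5' end at its centre. That of mlc-2 is chrX:17456945-17457065 on the minus strand, centred 419 bp upstream. That of mlc-1 is chrX:17459039-17459159 on the plus strand, centred 111 bp upstream. That of myo-2 is chrX:12467764-12467884 on the plus strand, centred 237 bp upstream. Capitals mark matches to GAGAGA on either strand.
mlc-3: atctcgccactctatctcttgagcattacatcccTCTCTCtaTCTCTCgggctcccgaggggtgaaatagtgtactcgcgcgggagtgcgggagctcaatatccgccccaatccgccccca
mlc-2: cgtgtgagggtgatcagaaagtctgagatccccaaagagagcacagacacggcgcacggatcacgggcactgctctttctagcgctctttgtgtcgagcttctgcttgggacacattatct
mlc-1: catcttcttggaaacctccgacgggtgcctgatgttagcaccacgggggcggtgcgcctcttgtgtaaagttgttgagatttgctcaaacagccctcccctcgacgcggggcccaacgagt
myo-2: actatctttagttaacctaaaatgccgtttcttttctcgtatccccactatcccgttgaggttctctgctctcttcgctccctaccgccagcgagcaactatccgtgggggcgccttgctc
No annotated exon of a protein-coding gene overlapped these windows. Windows of the same length were taken at all 7 members with a pooled summit near the 5' end. GAGAGA, searched on both strands, was in 3 of these 7 windows (mlc-3, unc-15 and lev-11), against 32.2% of 2137 windows at IDR peaks and 14.1% of 5892 windows at the strongest pooled summit near protein-coding 5' ends. CANNTG, the E-box bound by basic helix-loop-helix factors such as the muscle regulator HLH-1, was in 1 of 7 (lev-11), against 39.9% and 41.8%. CAGCTG, which is 1 form of that motif and was counted within it, was in 0 of 7, against 4.82% and 4.19%. TATAAA was in 0 of 7, against 3.42% and 6.26%, and TTTTTT in 0 of 7, against 17.7% and 29.3%. The GC content of the 7 windows ranged from 49.6% to 62.8% with a median of 53.7%, against a median of 51.2% at IDR peaks and 45.5% at the protein-coding 5' ends.

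The values are the authors' signal values, the score that their peak caller gave each peak, and here they rank the entries of each list. The caller is not given in the sources used here, so the unit of this score is unknown. The authors deposited a list for each replicate and a list called on both replicates pooled, each of 30000 peaks. The remaining list is named for a cutoff on the irreproducible discovery rate (IDR, a measure of how well ranks match between replicates). It had 2137 entries with signal values from 129.8 to 1189. The first pooled value below it was also 129.8, and the IDR entries of the 9 genes had the same ranks in the pooled list. An entry there thus marks a high pooled value and does not show that each replicate had the peak. Of the 2137 entries, 1938 overlapped a peak in both replicates' lists. The full lists run down to weak entries, so the q-value (the caller's false discovery rate) is given where it matters: 4903 pooled peaks, 7578 peaks of replicate 1 and 3064 of replicate 2 had a q-value of 0.05 or lower. At those 1938 IDR peaks the pooled value was close to the sum of the replicates' values (median ratio 0.998, 5th to 95th percentile 0.821 to 1.07). The read depth is unknown, so no interval for counting error could be given. Ratios between the replicates were not corrected for depth. With 2 replicates, each value is shown and no p-value was computed.

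Of the 9 genes, 4 had an IDR summit near the 5' end: unc-15, unc-54, mlc-2 and mlc-3. The share of all protein-coding genes was 4.38%. The count rests on weaker IDR peaks and more on replicate 1 than on replicate 2. It was 0 when the 2137 strongest peaks of replicate 2 were used instead, and 0 with the 1068 strongest IDR peaks. In replicate 2, mlc-3 (rank 2539, q = 0.0238) and unc-15 (rank 2632, q = 0.0283) fell shortly after rank 2137. There mlc-2 (rank 3931) and unc-54 (rank 15508) were farther down. In the pooled list, 7 of 9 had a summit there (29.5% of all protein-coding genes), and the genes without one were the heavy chain genes myo-1 and myo-3. Replicate 1's list had a summit for 6 of 9 (28.2% of all genes) and replicate 2's for 7 of 9 (31.5%), with 6 of 9 in both (17.7%). Counting only entries with a q-value of 0.05 or lower gave 6 of 9 in replicate 1 (10.5% of all genes) but 2 of 9, unc-15 and mlc-3, in replicate 2 (6.58%). The median of the strongest pooled value was 129.9 over the 7 genes with a summit, against 69.3 over 5892 protein-coding genes with one. The IDR list holds only values from 129.8 upward, and within it the median was 135.5 for the 4 genes against 175.2 for 874 protein-coding genes. The 7 genes with a pooled summit thus stood in the upper part of the full list. The 4 of them that reached the thresholded list stood in its lower part.

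**Figure D1:**
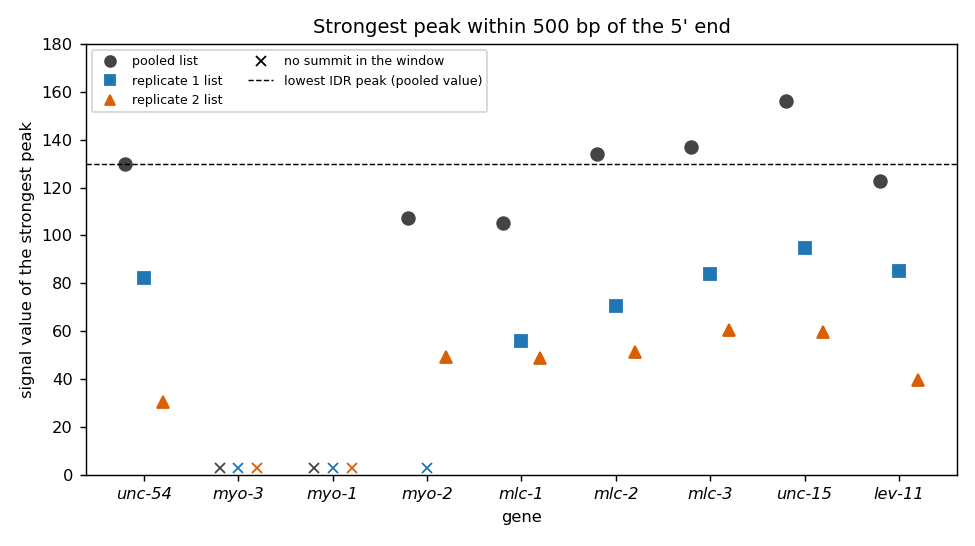
Signal value of the strongest peak whose summit lies 500 bp or less from the 5' end (vertical axis, authors' signal value) for each gene (horizontal axis) in the pooled list (circles), replicate 1 (squares) and replicate 2 (triangles); crosses near the axis mark genes with no summit there and carry no value, and the dashed line is the lowest IDR peak, 129.8. The 4 genes at or above the line are unc-54, mlc-2, mlc-3 and unc-15, and every gene with a summit in both replicates has the higher value in replicate 1. At mlc-3 the replicates' values belong to summits on either side of the gene's start.

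The body wall heavy chain genes differed from each other. For unc-54 (WBGene00006789, chromosome I, 14855901 to 14863482, minus strand), which encodes the major body wall myosin, the pooled peak at 14863361 to 14863800 had its summit 99 bp upstream of the 5' end, with a signal value of 129.9 and rank 2133, 4 places above the end of the IDR list. The value was 82.3 in replicate 1 (rank 1559, q = 0.000962) and 30.6 in replicate 2 (rank 15508, q = 0.645). The signal at unc-54 was therefore listed mainly in replicate 1: the ratio of replicate 1 to replicate 2 was 2.69, and 34 of 1938 IDR peaks with a value in both replicates (1.75%) had a ratio as high. Over those 1938 peaks the median ratio was 1.22 and the 5th to 95th percentile 0.664 to 2.19. The rest of the 2137 IDR peaks lacked an overlapping peak in a replicate's list and so have no ratio. The share and the range leave them out, although they may be more one-sided than unc-54. For myo-3 (WBGene00003515, chromosome V, 12226817 to 12234343, minus strand), whose myosin occupies the centre of the body wall thick filament, no list had a summit in the 5' window. The nearest pooled summit was 2507 bp downstream, inside the gene, with a value of 88.5.

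The pharyngeal heavy chain genes had no IDR summit near the 5' end. For myo-1 (WBGene00002348, chromosome I, 7258946 to 7267057, minus strand), no list had a summit in the window, and the nearest pooled summit was 3879 bp inside the gene with a value of 51.1. For myo-2 (WBGene00003514, chromosome X, 12468061 to 12475348, plus strand), the pooled summit 237 bp upstream had a value of 107.3 (rank 3423, q = 0.0159), and replicate 2 had a summit 214 bp upstream with 49.2 (rank 4422, q = 0.135). No peak of replicate 1 overlapped this pooled peak. The pooled value exceeded that of replicate 2 by 58.1, so absence from the list of replicate 1 does not show that its reads held no signal there. The site was the only one of the 7 pooled 5' summits that was listed in replicate 2 alone. It is also shared with other annotated genes, since it lies inside the non-coding RNA genes T18D3.13 and T18D3.14 and 82 bp upstream of T18D3.10.

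The light chain genes each had a summit in the 5' window in both replicates, with smaller differences between replicates than at unc-54. For mlc-3 (WBGene00003371, chromosome III, 5565025 to 5567382, plus strand), the essential light chain gene, the values were 136.9 pooled (rank 1882), 83.7 in replicate 1 and 60.4 in replicate 2. Its strongest summits did not coincide: they lay 77 bp upstream in the pooled list, 106 bp upstream in replicate 1 and 84 bp downstream in replicate 2. The ratio of 1.39 thus compares overlapping peaks with summits on either side of the gene's start. Replicate 2 had no upstream summit in the window. Downstream, replicate 1 also had a summit, at 93 bp with 43.2, which was lower than the 60.4 of replicate 2. The pooled list had one at 123 bp with 61.1. For mlc-2 (WBGene00003370, chromosome X, 17455792 to 17456586, minus strand), a regulatory light chain gene, the values were 134.1 pooled (rank 1968), 70.5 in replicate 1 and 51.3 in replicate 2, a ratio of 1.38. This summit lay 419 bp from the 5' end, the farthest of the 7, and 80 bp upstream of the non-coding RNA gene C36E6.11.

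For mlc-1 (WBGene00003369, chromosome X, 17459210 to 17460778, plus strand), the other regulatory light chain gene, the pooled value was 105.1 (rank 3620), outside the IDR list. Of the genes' strongest 5' peaks with a value in both replicates, this was the most even. It had 55.7 in replicate 1 and 48.7 in replicate 2, a ratio of 1.15. The regulatory light chain genes are divergent neighbours with 2623 bp between their 5' ends, and their summits lay 2094 bp apart in that interval. Their spliced coding sequences were 96.7% identical over 510 aligned bases, whereas the printed windows were 43.7% identical over 126 aligned columns. Reads from coding exons could therefore be shared between the pair (the read length is unknown), but all 405 stretches of 36 bases in each upstream peak occurred once in the genome. In the body peak of mlc-2, 354 of 405 did (87.4%).

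The paramyosin gene had the strongest peak of the set. For unc-15 (WBGene00006754, chromosome I, 7376604 to 7383197, minus strand), the pooled peak at 7383073 to 7383512 had a value of 156.3 and rank 1386, with its summit 96 bp upstream. The values were 94.9 in replicate 1 (rank 1081) and 59.5 in replicate 2 (rank 2632), a ratio of 1.59, and both had a q-value under 0.05 (0.00139 and 0.0283). Of the 874 protein-coding genes with an IDR summit, 299 (34.2%) had a lower value than unc-15. A second pooled summit lay 298 bp upstream with 97.7, and each replicate had one beside it, at 51.1 in replicate 1 and 51.3 in replicate 2.

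The tropomyosin gene lev-11 (WBGene00002978, chromosome I, 14621169 to 14631094, minus strand) had its strongest signal inside the gene in the pooled list and in replicate 2, and at the 5' end in replicate 1. Its 5' summit, 52 bp upstream, had a pooled value of 122.6 and rank 2460, below the IDR list. That site was uneven, with 85.0 in replicate 1 (rank 1437) and 39.5 in replicate 2 (rank 8118), a ratio of 2.15. That ratio was just under the 95th percentile of the 1938 IDR peaks with both values, 2.19. It was above that of the IDR peaks at protein-coding 5' ends, 1.96 (799 peaks with both values, median 1.14). The IDR summit lay 2987 bp inside, at 14628107 in an intron, and was even: 132.5 pooled (rank 2031), 71.7 in replicate 1 (rank 2267) and 64.6 in replicate 2 (rank 2128), a ratio of 1.11. It is not at an annotated start, since the nearest of the 11 annotated starts of protein-coding transcripts lay 2661 bp further downstream. A group of internal starts between 14625434 and 14625446 had a pooled summit 105 bp downstream, with 77.7 pooled, 47.2 in replicate 1 and 37.0 in replicate 2 (pooled q = 0.130). For unc-15, which has 1 internal start at 7379328, the nearest pooled summit lay 409 bp downstream of it with a value of 51.4 (q = 0.389).

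**Figure D2:**
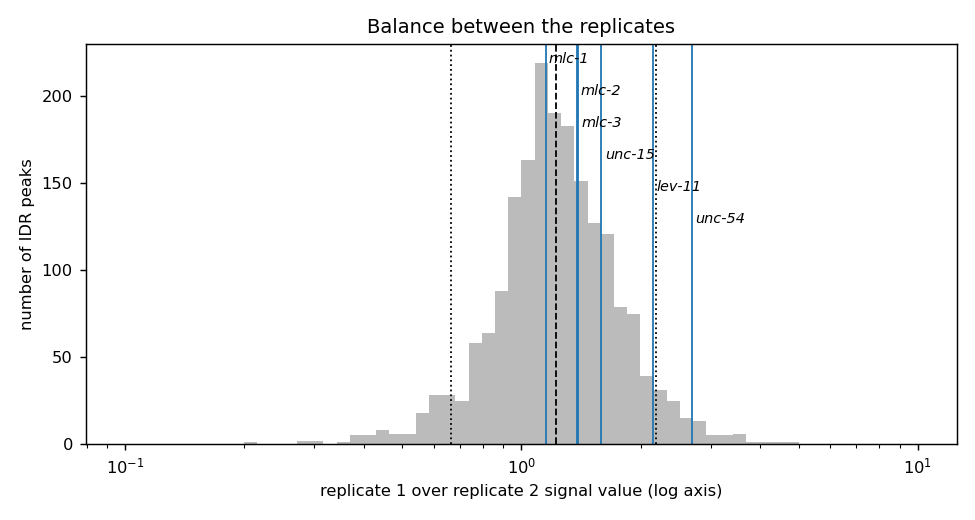
Number of IDR peaks (vertical axis) by the ratio of the replicate 1 to the replicate 2 signal value (horizontal log axis), over 1938 peaks with a value in both; the dashed line is their median, 1.22, the dotted lines their 5th and 95th percentiles, and blue lines are the strongest pooled 5' peak of each gene with a value in both replicates. Ratios run from 1.15 at mlc-1 to 2.69 at unc-54, which alone of the 6 lies beyond the 95th percentile of these peaks, 2.19. At mlc-3 the ratio compares summits on either side of the gene's start.

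In the pooled list, summits inside the genes were weaker than at the 5' end in 6 of the 7 genes with a summit there, lev-11 being the exception, and more closely spaced than over protein-coding genes as a whole. The replicates' own lists differed: in replicate 1 the 5' summit of lev-11 was the stronger (85.0 against 71.7 inside), whereas in replicate 2 the strongest summit inside was above that at the 5' end in unc-54 (47.5 against 30.6) and in myo-2 (53.3 against 49.2), as well as in lev-11. All 9 had a pooled summit in the body (40.6% of protein-coding genes), and 1 of 9, lev-11, an IDR summit (3.09% of protein-coding genes). Body counts include summits inside a gene that also lie in its 5' window. These are the only body summit of mlc-2 (297 bp inside) and a summit each of mlc-3 (123 bp) and myo-2 (2 bp). The pooled list placed 40 summits in 51.75 kb of these genes, or 0.773 per kb, against 0.333 per kb over all protein-coding genes. Most of the 40 were weak entries. A q-value of 0.05 or lower was reached by 2 in myo-3, 2 in lev-11, 1 in mlc-3 and none in the other genes. The matching share over all protein-coding genes was not computed. The spacing differed between replicates. Replicate 1 had 41 summits, or 0.792 per kb (0.349 over all genes), and replicate 2 had 22, or 0.425 per kb (0.306 over all genes). Genes differ in length. Of the 1397 protein-coding genes of 6 to 10 kb, 73.6% had a pooled summit in the body, with a median of 0.325 per kb, and 9.95% had an IDR summit. The gene lev-11, at 9.926 kb, is in that range, but the light chain genes are shorter than 6 kb. The shares over the 9 genes are therefore not matched in length to these.

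**Figure D3:**
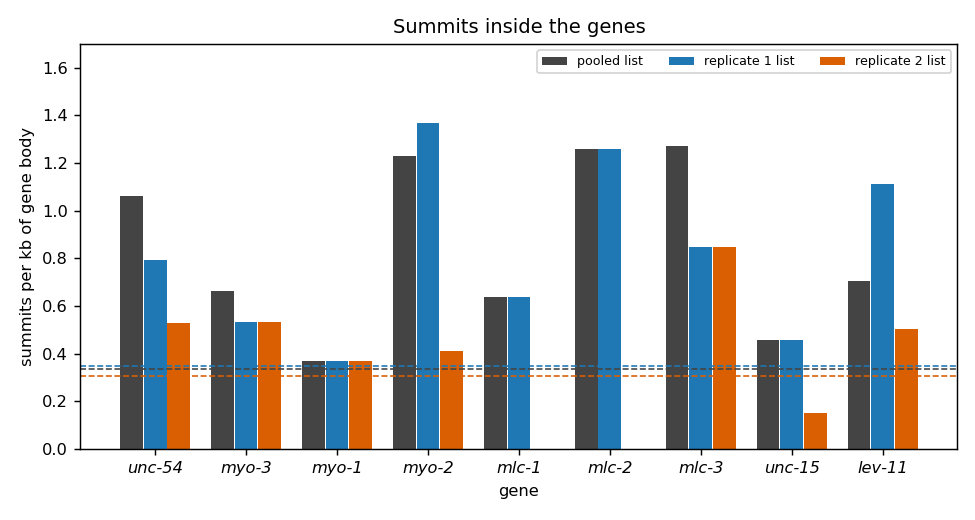
Summits per kb of gene body (vertical axis) for each gene (horizontal axis) in the pooled list (grey), replicate 1 (blue) and replicate 2 (orange), with dashed lines of the same colours for all protein-coding genes together. Pooled values run from 0.370 per kb at myo-1 to 1.27 per kb at mlc-3, and the bodies of mlc-1 and mlc-2 have no summit in replicate 2.

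Among the heavy chain genes, myo-2 and unc-54 had the most body summits. The pooled list held 9 in myo-2 (1.23 per kb), and 0.573% of the genes of 6 to 10 kb had as many per kb. Of these 9, 4 overlapped a peak in both replicates, 4 in replicate 1 alone and 1 in replicate 2 alone; replicate 1's own list had 10 summits in the gene and replicate 2's had 3. In unc-54 there were 8 (1.06 per kb, 2.79% of those genes as high), with 6 in replicate 1 and 4 in replicate 2. In myo-3 there were 5 (0.664 per kb, 18.8% as high), with 4 in each replicate, and in myo-1 there were 3 (0.370 per kb, 45.7% as high), with 3 in each replicate. By number of pooled entries, the heavy chain genes thus ranged from among the densest of their length to about the middle. None of the pooled entries inside myo-2 or unc-54 had a q-value of 0.05 or lower.

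The strongest body entries of the heavy chain genes lay far from the start. In myo-3 the summit 6651 bp inside had 95.95 pooled (q = 0.0397), with 52.9 in replicate 1 and 32.9 in replicate 2. The next, 3244 bp inside, had 94.3 (q = 0.0447). These were the only pooled heavy chain body summits with a q-value under 0.05. In replicate 1's list, unc-54 had such a summit 3096 bp inside (56.0, q = 0.0116), as did myo-2 6568 bp inside (52.2, q = 0.0254) and myo-3 6594 bp inside (52.9, q = 0.022). In myo-2 the strongest was 89.6, 3485 bp inside (q = 0.0631), with 34.9 in replicate 1 and 53.3 in replicate 2, and in unc-54 it was 72.6, 4118 bp inside, with 27.1 and 44.6. At those sites replicate 2 had the higher value, unlike at the 5' end of unc-54. The values there compare overlapping peaks with different summits. In unc-54 these lay 4378 bp inside in replicate 1 (q = 0.332) and 4122 bp in replicate 2 (q = 0.231). In myo-2 they lay at 3376 and 3510 bp. Each replicate's own strongest body summit had 56.0 and 47.5 in unc-54, and 52.2 and 53.3 in myo-2. In myo-1 the strongest pooled body summit had 71.2, 6034 bp inside, with 22.7 in replicate 1 and 29.6 in replicate 2.

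Of the 25 pooled body summits of the heavy chain genes, 22 (88%) lay in coding exons, which make up 76.9% of their length. Over all protein-coding genes, 50.8% of body summits lay in coding exons, which make up 38.3% of the length. In lev-11, where coding exons make up 16.9% of the length, 5 of 7 body summits were in introns. In mlc-3 the strongest body summit, 1575 bp inside in an intron, had 94.4 pooled (q = 0.0439) and 40.8 in replicate 2, with no overlapping peak in replicate 1. Of the 40 body summits of the 9 genes, 17 (42.5%) overlapped a peak in both replicates, 16 (40%) in replicate 1 alone and 7 (17.5%) in replicate 2 alone. Over all protein-coding genes these shares were 54.5%, 27.4% and 13.6%.

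**Figure D4:**
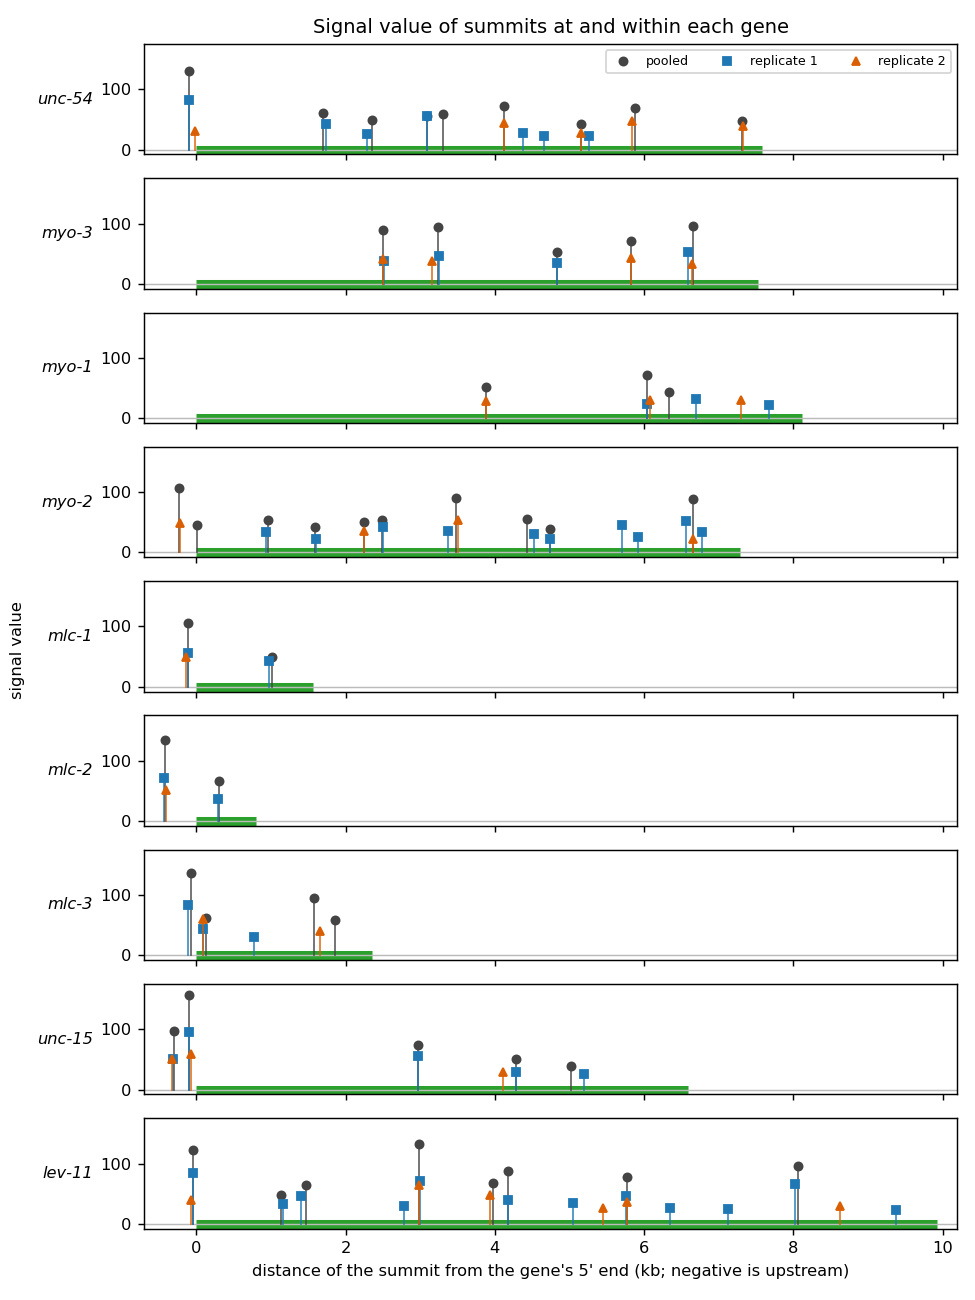
Signal value (vertical axis of each row) of every summit at each gene against its distance from the 5' end in kb (horizontal axis, negative upstream), in the pooled list (circles), replicate 1 (squares) and replicate 2 (triangles); the green bar is the gene body. Pooled signal is highest upstream of the start in unc-54, myo-2, the light chain genes and unc-15, at distances from 77 bp (mlc-3) to 419 bp (mlc-2). By contrast, myo-1 and myo-3 have summits only inside, and lev-11 has its highest pooled value, 132.5, at 2987 bp inside.

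Beyond the 500 bp limit, mlc-3 had a further pooled summit 1123 bp upstream with 119.7 (rank 2591), 80.6 in replicate 1 and 36.8 in replicate 2. The farthest summit inside the limit was that of mlc-2 at 419 bp. Replicate 2 also had an entry 630 bp upstream of mlc-2 with 24.4 (q = 0.795). These entries were not counted for the genes.

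Lists of other muscle and myosin genes gave the setting. Of 19 genes of the thin filament and its regulators, 2 had an IDR summit near the 5' end (10.5%, against 4.38% of all protein-coding genes), and 10 a pooled one (52.6%, against 29.5%). The genes with an IDR summit were unc-60, which encodes the actin-depolymerising factor cofilin, with 296.8 at 368 bp upstream (180.3 in replicate 1 and 126.1 in replicate 2; F53E2.2 starts at the same base), and the actin gene act-4, with 145.2 at 43 bp upstream (123.2 and 27.9). The gene act-4 also had IDR summits in introns, at 144.1 and 132.2. Its 5' peak, like that of unc-54, was listed mainly in replicate 1. Of 19 genes for dense body, M-line and giant sarcomere proteins, 2 had an IDR summit (10.5%) and 12 a pooled one (63.2%). Those with an IDR summit were unc-112, the kindlin gene of integrin attachments, with 353.8 at 464 bp upstream (204.3 and 146.8), and pat-4, the integrin-linked kinase gene, with 195.8 at 365 bp upstream (108.1 and 89.8). These, with unc-60, were stronger than any of the 9 genes in the pooled list and in each replicate, and lay farther from the start than 6 of the 7 upstream summits. The remaining one, that of mlc-2, lay between pat-4 and unc-60 on the near side and unc-112 on the far side.

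No IDR summit was near the 5' end, or in the body, of 14 genes for non-muscle myosins and other light chains or of 8 muscle transcription factor genes. Of these, 6 of 14 (42.9%) and 4 of 8 (50%) had a pooled summit near the 5' end, against the same 29.5%. In both replicates' lists a summit was found there for 7 of 19 thin filament genes, 8 of 19 dense body and M-line genes, 4 of 14 non-muscle myosin genes and 4 of 8 transcription factor genes, against 17.7% of all protein-coding genes.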

How the data were processed

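HMG-4-eGFP sites were mapped by chromatin immunoprecipitation and sequencing in 2 biological replicates. The authors deposited 4 peak lists on ce11, derived from alignments with 1 control alignment common to both replicates, per the file headers. Each peak carries a signal value and a −log10 q-value from the authors' caller; which aligner, caller and IDR cutoff they used is not given in the sources used here. No peak with the same interval and signal value was in both replicates' lists (0 peaks). Depth is unknown.

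Genes and transcript starts came from Ensembl release 115 (WBcel235, the same build), and coordinates are 1-based. Summits within 500 bp of the gene's 5' end, or inside the gene, were assigned with Python 3.11.15. The replicates' values at a pooled peak are those of the strongest peak overlapping it by at least 1 bp. Coding sequences were aligned with Biopython 1.88. Assignment and matching were tested on simulated data. Members and the 4 lists of other genes (61 names, 60 found in the annotation) were chosen with earlier results of these data known. Genes named are the members, list genes with an IDR summit, and neighbours of the members' IDR summits; the neighbours of the myo-2 summit were added after its values were seen. Counts are descriptions beside the share of all protein-coding genes, with no test.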

Additional observations from a re-analysis of the deposited data

How the results depend on the processing

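The count of 4 genes with an IDR summit near the 5' end was 3 with a 200 bp window, which loses mlc-2, and 4 with a 1000 bp window, with interval midpoints, with any transcript start and with interval overlap. It fell to 0 with the 1068 strongest IDR peaks. With the 2137 strongest peaks of 1 replicate in place of the IDR list it ranged from 0 without replicate 1 to 4 without replicate 2, where lev-11 replaced mlc-2. The count of 1 gene with an IDR summit in the body was 0 with the 1068 strongest peaks and ranged from 0 without replicate 2 to 1 without replicate 1. The pooled count of 7 ranged from 6 to 7 when a replicate was left out. The count of 4 genes over the other muscle and myosin lists was 1, act-4, with a 200 bp window and ranged from 4 to 6 when a replicate was left out. The pooled value at myo-2 was 45.6 with a 200 bp window. The cause of these changes was not tested. The other alternatives run moved no count by over 1.5 times, among them 5 to 7 genes with a summit in both replicates against 6. No paired analysis was possible because there is 1 group. Unknown depth limits what absence from a list can show.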
